A study of Mus musculus with 8 samples.

Results

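The 8 genes described here are endoderm transcription factors and genes of the early gut: Foxa1, Foxa2, Foxa3, Sox17, Hhex, Pyy, Trh and Nepn. They were chosen by name and are 8 of the 55422 features counted in single-cell RNA-seq libraries of mouse chimaeras. Tet-TKO embryonic stem cells, 1 line of C57BL/6J-129Sv background in which Tet1, Tet2 and Tet3 were deleted, carried a tdTomato reporter driven by a CAG promoter and were injected into C57BL/6J blastocysts. Embryos were pooled at E7.5 or E8.5, dissociated and sorted into tdTomato+ cells (Tet-TKO) and tdTomato- cells of the host (wild type, WT). E8.5 was sampled with 4 tdTomato+ and 2 tdTomato- libraries, and E7.5 with a single one of each. The genotypes therefore also differ in strain background, and both kinds of cells had developed in the same mixed embryos. Replicates are libraries of pooled embryos, so p-values measure the spread between these libraries, which may be technical in part.

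Definitive endoderm leaves the primitive streak during gastrulation, replaces most of the visceral endoderm on the surface of the embryo and folds into the gut tube. FOXA1, FOXA2 and FOXA3 are forkhead factors that bind closed chromatin early in endoderm development, and FOXA2 is also required in the node, notochord and floor plate. SOX17 is a HMG-box factor needed for definitive endoderm that acts in arterial endothelium too, and HHEX is a homeobox factor of the anterior endoderm, the liver and thyroid buds and the blood vessel lineage. Pyy encodes the gut hormone peptide YY, Trh the precursor of thyrotropin-releasing hormone, and Nepn the secreted leucine-rich repeat protein nephrocan. TET enzymes oxidise methylated cytosine, which in mammals lies mostly in CpG dinucleotides. Cells derived from embryonic stem cells contribute little to visceral and yolk sac endoderm in chimaeras, whereas host cells form it.

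The members differ in the CpG content of the 250 bases before their starts, shown here for the member with the largest fitted change in gut cells (Pyy) and for 3 that span the range of CpG counts, with each CpG in capitals. The sequences are those of RefSeq on GRCm38.p6, 5′ to 3′ on the strand of the gene. Pyy lies on the minus strand at chr11:102107833-102108082, Foxa3 on the minus strand at chr7:19023540-19023789, Hhex on the plus strand at chr19:37434591-37434840 and Nepn on the plus strand at chr10:52391358-52391607.
Pyy: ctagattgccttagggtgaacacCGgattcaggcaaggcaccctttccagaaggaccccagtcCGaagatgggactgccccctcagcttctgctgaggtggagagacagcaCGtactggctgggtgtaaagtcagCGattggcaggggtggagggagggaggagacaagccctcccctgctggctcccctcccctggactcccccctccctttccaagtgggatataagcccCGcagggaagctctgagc
Foxa3: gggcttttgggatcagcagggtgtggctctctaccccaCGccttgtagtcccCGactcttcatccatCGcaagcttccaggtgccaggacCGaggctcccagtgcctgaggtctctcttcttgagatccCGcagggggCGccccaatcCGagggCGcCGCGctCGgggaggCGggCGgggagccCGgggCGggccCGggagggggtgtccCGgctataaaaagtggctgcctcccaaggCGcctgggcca
Hhex: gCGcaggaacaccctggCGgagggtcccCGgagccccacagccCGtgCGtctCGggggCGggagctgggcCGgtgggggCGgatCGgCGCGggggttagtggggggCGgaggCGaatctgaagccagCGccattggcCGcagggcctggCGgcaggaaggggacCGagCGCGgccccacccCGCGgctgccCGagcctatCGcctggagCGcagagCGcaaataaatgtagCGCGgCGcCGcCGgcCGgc
Nepn: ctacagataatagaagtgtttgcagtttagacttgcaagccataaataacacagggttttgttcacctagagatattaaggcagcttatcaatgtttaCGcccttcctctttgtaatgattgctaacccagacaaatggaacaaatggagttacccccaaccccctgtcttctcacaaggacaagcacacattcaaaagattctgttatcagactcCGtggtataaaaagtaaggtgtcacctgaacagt

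The Hhex window held 32 CpGs, the Foxa3 window 18, this Pyy window 5 and the Nepn window 2, against a median of 6 over 32851 start sites of 27025 genes. Foxa1 had 21 CpGs and Trh had 25. Foxa2 has 3 starts, with 6, 20 and 13 CpGs, and the other Pyy start had 7. RefSeq windows matched 7 of the 8 members, Sox17 being the exception. The forkhead motif TGTTTAC, searched on both strands, was in the windows of Foxa1 and Nepn and in 3.17% of all windows. Its variant TGTTTGC was in that of Nepn alone among the members and in 4.30% of all windows. TATAAA was in those of Foxa2, Foxa3 and Nepn and in 12.4% of all windows. A match is a description of the letters and no methylation was measured in these libraries. In the GENCODE annotation of GRCm38 the genes lie apart from each other, Foxa1 at 57540628 to 57546916 on chromosome 12, Foxa2 at 148042877 to 148046969 on chromosome 2, Foxa3 at 19013284 to 19023538 on chromosome 7, Sox17 at 4490931 to 4497354 on chromosome 1, Hhex at 37434810 to 37440731 on chromosome 19, Pyy at 102106676 to 102107832 on chromosome 11, Trh at 92242061 to 92244650 on chromosome 6 and Nepn at 52388972 to 52404625 on chromosome 10. All 8 are protein-coding. The starts of RefSeq and GENCODE differ for some of them, as for Nepn, whose RefSeq start lies inside the GENCODE gene.

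The libraries held 65601218 to 136982886 UMIs (unique molecular identifiers, 1 per captured transcript) and 1008 to 9545 cells after filtering. Tet-TKO libraries 3 and 4 stood apart, with 2299 and 1008 cells and median depths of 40404 and 68931 UMIs per cell, against 12178 to 18774 in the other E8.5 libraries. tdTomato UMIs were found in 60.8% to 87.3% of Tet-TKO cells and 0.532% to 0.841% of WT host cells, so the labels held in all 8 libraries, and libraries shared at most 0.404% of their cell barcodes. Tet1 was at 9.92, 11.0, 20.02 and 20.9 CPM (UMIs of the gene per 1000000 UMIs) in the E8.5 Tet-TKO libraries and at 22.6 and 20.4 CPM in the WT host ones. Tet2 was at 5.99, 5.55, 10.5 and 9.73 CPM against 4.67 and 4.63 CPM, and Tet3 at 23.5, 22.5, 37.5 and 36.5 CPM against 23.1 and 23.2 CPM, so Tet2 was above both host values in all 4 Tet-TKO libraries and Tet3 in 3 of 4. Tags from the 3′ end do not check a deletion elsewhere in the gene. Cells were clustered without the 8 genes and clusters were named from marker lists, which gave 42 classes at E8.5. Values are listed in the order of Tet-TKO libraries 1 to 4, then of WT host libraries 1 and 2. The gut-like class held 396, 209, 96 and 27 cells of Tet-TKO and 1030 and 496 cells of the WT host. All 15 gut markers, among them Epcam, Shh and Pax9, had UMIs there in every library, with summed levels of 3588, 2418, 1995 and 1990 CPM in Tet-TKO and 4479 and 3146 CPM in WT host libraries. The class was named from these markers, so their presence is no check of the name.

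In WT host cells at E8.5 the members differed in the class where their level was highest. Levels are given as mean ± SD over the 2 WT host libraries, and they rank classes for 1 gene at a time, since 3′ counts do not compare genes. Foxa1 was at 68.3 ± 2.06 CPM in gut-like, 54.8 ± 1.34 CPM in notochord-like and 34.6 ± 17.9 CPM in cluster 48, which was led by Calca, Nkx2-9 and Nkx6-1. Foxa1 in cluster 48 ranged from 21.9 to 47.2 CPM, still under the notochord-like libraries. Foxa2 was instead highest in notochord-like cells, with 166.6 ± 21.5 CPM there, 130.9 ± 6.90 CPM in cluster 48 and 56.0 ± 8.92 CPM in gut-like. The notochord-like values of Foxa2, 151.4 and 181.8 CPM, did not overlap those of cluster 48, 135.7 and 126.0 CPM. Foxa3 was highest in visceral and yolk sac endoderm-like cells at 44.9 ± 2.11 CPM, next in gut-like at 38.7 ± 4.50 CPM, and at 15.9 ± 1.32 CPM in cluster 68, which was led by Cpm, Gpx2, Pax9 and Gja4 and also by the vascular genes Flt4 and Flt1. Foxa3 in gut-like and in visceral and yolk sac endoderm-like cells did not overlap between libraries.

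Sox17 had high levels in both endoderm and vessel classes. Among classes with both WT host libraries it was at 118.9 ± 30.4 CPM in cluster 57, led by Emcn, Clec1b and Esam, 99.8 ± 9.16 CPM in endothelium-like and 90.8 ± 41.98 CPM in gut-like cells, and these levels overlapped. Sox17 was also at 320.8 CPM in the 37 parietal endoderm-like cells of WT host library 1. Hhex was highest in haematoendothelial progenitor-like cells at 278.1 ± 19.5 CPM and cluster 57 at 260.8 ± 12.7 CPM, neighbours that overlapped, then in cluster 68, endothelium-like at 147.1 ± 0.461 CPM and gut-like at 94.2 ± 1.06 CPM.

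By class, the 3 genes of secreted products had their highest WT host level in gut-like cells. Pyy was at 191.0 ± 57.6 CPM in gut-like cells and at 41.1 ± 14.6 CPM in cluster 57, the next class. Nepn was at 224.0 ± 9.67 CPM in gut-like cells, 45.5 ± 29.0 CPM in cluster 68 and 17.3 ± 6.23 CPM in visceral and yolk sac endoderm-like cells. Nearly all Nepn UMIs of that last class, 157 of 166 and 70 of 71, came from its cluster 66, with 84 and 10 cells, where Nepn was at 155.1 and 707.5 CPM and Pyy at 81.0 and 485.1 CPM. Trh was at 147.5 ± 120 CPM in gut-like, 60.1 ± 77.9 CPM in cluster 68 and 59.1 ± 74.1 CPM in notochord-like cells, and these overlapped, with WT host library 2 low in all 3. Of all Nepn UMIs, 86.3% and 86.5% came from gut-like cells in WT host libraries 1 and 2, against 69.0% and 69.2% of Pyy UMIs and 39.3% and 27.0% of Sox17 UMIs.

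**Figure D1:**
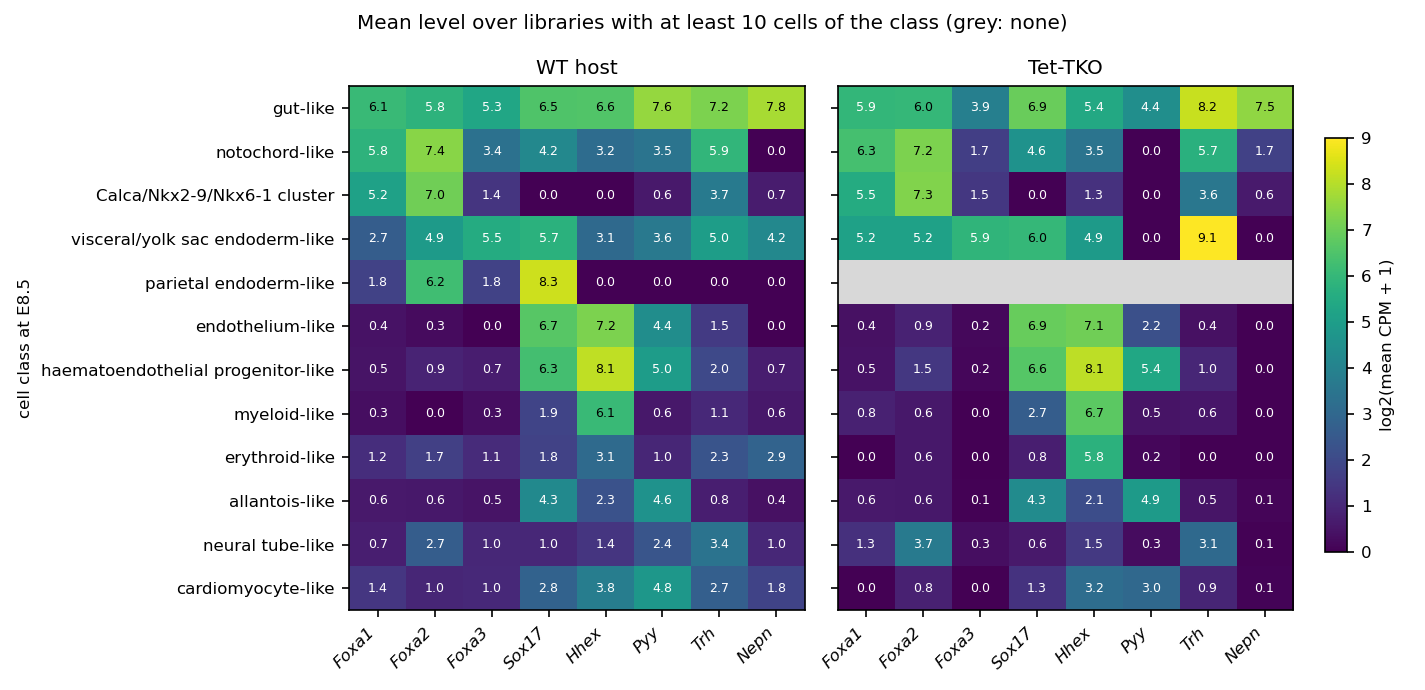
Heat maps of the level of each member, as log2(mean CPM + 1) over libraries, in 12 cell classes of E8.5 WT host (left) and Tet-TKO (right) libraries. Brighter squares are higher levels. The Foxa2 squares are brightest in notochord-like cells and cluster 48, those of Hhex in haematoendothelial progenitor-like cells, and those of Nepn in gut-like cells. The Pyy square of gut-like cells is darker in Tet-TKO. The Tet-TKO row for visceral and yolk sac endoderm-like cells rests on the 12 cells of 1 library.

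The genes with the pattern nearest to each member, by Pearson's r of log2(CPM + 1) over 38 WT host classes and 9292 genes, are given as descriptions, since classes share libraries. Foxa1 lay nearest to Vtn (r = 0.898), Foxa2 (r = 0.884) and Shh (r = 0.849), the last a signal secreted by gut, notochord and floor plate. Foxa2 lay nearest to Cpn1 (r = 0.884), Foxa1 and Vtn (r = 0.871). Foxa3 lay nearest to Ihh, a hedgehog signal of the gut endoderm, at r = 0.944, then to Tmprss2 (r = 0.919) and Spink1 (r = 0.919). Nepn was nearest to Spink1 (r = 0.832), Dpp4 (r = 0.810) and Ihh (r = 0.797), and Trh had Cpn1 (r = 0.894) and Foxa2 (r = 0.815) among its nearest 3. Hhex was nearest to Ppp1r13b (r = 0.845) and the endothelial genes Esam (r = 0.838) and Egfl7 (r = 0.822). Sox17 was nearest to Ctsh (r = 0.807), Adgrf5 (r = 0.773) and Sat1 (r = 0.771), and Pyy to Sox17 (r = 0.769), Gfpt2 (r = 0.753) and Srgap1 (r = 0.720). The correlation of Foxa1 with Foxa3 was 0.765 and that with Hhex 0.0626.

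The question of the comparison in gut-like cells at E8.5 is whether cells without TET enzymes express these genes at the level of the host cells beside them. Pyy was the member furthest from the host level. It was at 35.4, 35.5, 7.65 and 3.80 CPM in Tet-TKO gut-like cells and at 150.3 and 231.7 CPM in those of the WT host. The groups did not overlap, and the log2 fold change was -3.01 ± 0.55 (SE), or 8.03-fold lower, with an adjusted p of 0.0260 in the quasi-likelihood test of edgeR, adjusted by Benjamini and Hochberg over all genes of the class. A call required an adjusted p under 0.01 and an absolute log2 fold change of at least 1, so Pyy did not pass. Pyy UMIs were seen in 7.29% to 7.83% of Tet-TKO gut-like cells and in 24.2% and 26.0% of those of the WT host. In cardiomyocyte-like cells, chosen as the class for background, the shares were 1.92% to 11.1% and 10.9% and 9.76%. The share in gut-like cells of Tet-TKO library 3 lay below the 11.1% of its cardiomyocyte-like cells. In the WT host Pyy averaged 26.3 CPM in cardiomyocyte-like cells, but 0.122 CPM in blood progenitor-like and 0.959 CPM in erythroid-like cells. The cardiomyocyte-like shares are therefore not a floor for Pyy. Median depths were 11609 to 61179 UMIs in Tet-TKO gut-like cells and 10636 and 11465 in WT host ones, and 9895 to 65906 and 13715 and 12043 in cardiomyocyte-like cells. With each gut-like cell thinned to 5000 UMIs the Pyy shares were 3.12% to 6.44% in Tet-TKO and 17.9% and 21.9% in WT host libraries, from the 387, 202, 96 and 27 Tet-TKO and 938 and 461 WT host cells that were deep enough.

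Among the transcription factors, Foxa3 and Hhex had lower values in all 4 Tet-TKO libraries and Foxa1 and Foxa2 lay near the host level. The share of all genes without overlap between the groups is not given. A lack of overlap is therefore not read as a result about the members. Foxa3 was at 23.0, 20.3, 4.65 and 6.97 CPM in Tet-TKO and 41.9 and 35.5 CPM in WT host gut-like cells. Its groups did not overlap, with a log2 fold change of -1.32 ± 0.47 and an adjusted p of 0.271 in edgeR. Hhex was at 72.7, 41.6, 27.9 and 27.9 CPM in Tet-TKO and 93.5 and 95.0 CPM in WT host cells. These groups did not overlap either, and the log2 fold change was -1.01 ± 0.35 (edgeR adjusted p = 0.250). With cells thinned to 5000 UMIs, Foxa3 UMIs were in 8.79%, 10.9%, 3.12% and 0% of Tet-TKO and 17.5% and 16.1% of WT host gut-like cells, and without thinning in 13.5% to 29.6% and 31.0% and 28.0%.

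Foxa1 was at 60.2, 55.4, 61.2 and 65.9 CPM in Tet-TKO and 69.8 and 66.9 CPM in WT host gut-like cells. Every Tet-TKO value was under both host values, but by a log2 fold change of only -0.12 ± 0.12 (edgeR adjusted p = 0.757). Foxa2 was at 67.5, 57.7, 58.0 and 70.9 CPM against 62.3 and 49.7 CPM, overlapping, with a log2 fold change of 0.23 ± 0.16 (edgeR adjusted p = 0.610). Foxa1 UMIs were in 37.8% to 66.7% of gut-like cells over the 6 libraries and in 0% to 2.56% of cardiomyocyte-like cells, so the signal was well above background in both genotypes. Sox17 was at 156.8, 137.6, 70.3 and 125.4 CPM in Tet-TKO and 120.5 and 61.1 CPM in WT host cells, overlapping, with a log2 fold change of 0.50 ± 0.35 (edgeR adjusted p = 0.633) that was 1.06 without WT host library 1 and 0.10 without WT host library 2.

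Trh and Nepn spread widely within a genotype. Trh was at 564.5, 285.0, 117.3 and 245.8 CPM in Tet-TKO and 232.2 and 62.8 CPM in WT host gut-like cells, and its log2 fold change of 1.13 ± 0.63 had an edgeR adjusted p of 0.525. It was 2.34 without WT host library 1, 0.48 without WT host library 2 and 0.59 without Tet-TKO library 1, and called in none of these. Nepn was at 99.0, 98.6, 394.2 and 129.9 CPM against 217.2 and 230.9 CPM. Tet-TKO library 3 was above both host libraries and the other 3 below them, and the log2 fold change was -0.28 ± 0.47 (edgeR adjusted p = 0.870). Without library 3 it was -0.97 (adjusted p = 0.0106), which did not pass. None of the 8 members was called, where 0.740% of the 12167 genes tested in gut-like cells were called, 37 higher and 53 lower. Pyy, Hhex and Foxa3 had an unadjusted p under 0.05, at 3.55e-04, 0.0170 and 0.0197, as did 1523 of all genes. DESeq2 called 0 members too, with an adjusted p of 0.1065 for Pyy.

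**Figure D2:**
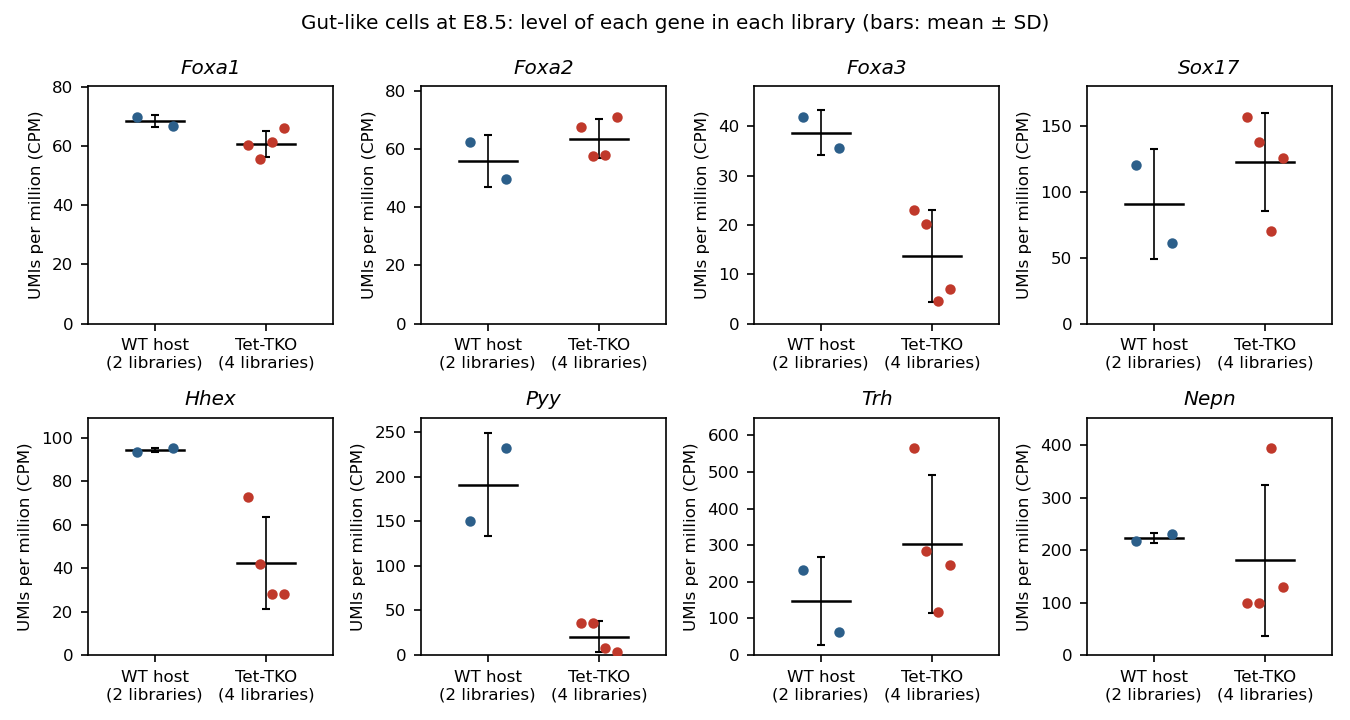
Level of each member (CPM, 1 panel per gene, axes from 0) in the gut-like cells of each E8.5 library (4 of Tet-TKO, 2 of the WT host), with points for libraries and bars for mean and SD. For Pyy, Foxa3 and Hhex, and by a small margin for Foxa1, all 4 Tet-TKO points lie under both WT host points. The share of all genes set apart in this way is not given. For Foxa2, Sox17 and Trh the points overlap, and 1 Nepn point, of Tet-TKO library 3, stands at 394.2 CPM.

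Erythroid and visceral endoderm-derived gut genes differed with genotype in the gut-like class, and the source of their RNA was not tested. The 8 erythroid markers summed to 13.0, 42.4, 20.2 and 10.1 CPM in E8.5 Tet-TKO gut-like cells and to 597.9 and 1273 CPM in those of the WT host, with 6 to 7 of the markers above 0 in Tet-TKO and 8 of 8 in WT host libraries. The visceral endoderm-derived gut list (Rhox5, Trap1a, Afp, Ttr and others, 11 genes) summed to 488.4, 308.7, 104.4 and 91.2 CPM against 1759 and 1315 CPM. Between 8 and 10 of its genes had UMIs in Tet-TKO libraries, and all 11 in both WT host libraries. Of 10 tested genes of that list 4 were called lower and 0 higher, and its median log2 fold change was -2.79 where that of all genes was 0.02. The called genes were the retinol carrier Rbp4 (log2 fold change -3.17 ± 0.44, edgeR adjusted p = 0.00599), Amn (-3.09 ± 0.40, 0.00471), the X-linked homeobox gene Rhox5 (-2.56 ± 0.22, 6.69e-04) and the fetal plasma protein Afp (-2.46 ± 0.33, 0.00514). Trap1a had a log2 fold change of -3.22 ± 0.70 with an adjusted p of 0.0559. Gut-like cells with a UMI of Rhox5 or Trap1a made up 5.56%, 5.74%, 9.38% and 3.70% of the Tet-TKO and 19.1% and 14.5% of the WT host class. Without those cells the log2 fold change was -3.11 for Pyy (edgeR adjusted p = 0.0173), -1.19 for Foxa3 and -1.20 for Hhex. The filter rests on Rhox5, which was itself called lower, and it removed a larger share of WT host cells. Any cells of visceral endoderm origin without a UMI of either gene remain in this fit.

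In the other lists of the endoderm programme edgeR called no gene in gut-like cells. Of 14 tested endoderm regulators such as Gata6 and Shh, 0 were called, 2 had an unadjusted p under 0.05 and 7 had a negative fold change, with a median log2 fold change of -0.09. Shh had -0.22 ± 0.16 (edgeR adjusted p = 0.641) and Ihh -0.996 ± 0.25 (0.0908). Of 22 gut epithelium genes 0 were called, 8 had an unadjusted p under 0.05 and 16 had a negative fold change, at a median of -0.28. Epcam, an adhesion molecule of the gut epithelium, was at 856.6 to 907.5 CPM in Tet-TKO and 1052 and 908.0 CPM in WT host cells, and the protease inhibitor Spink1 had -0.95 ± 0.68 (0.638). Of 12 foregut genes 0 were called at a median of -0.35, of 10 hindgut genes 0 at a median of -0.02, and of 5 tested floor plate genes 0 at a median of 0.38, with 3, 2 and 1 at an unadjusted p under 0.05. DESeq2 called 2 gut epithelium genes and 1 foregut gene lower and 0 in the regulator, hindgut and floor plate lists. These were Rab25 (edgeR log2 fold change -1.10 ± 0.19, adjusted p = 0.0205), Cpm (-1.24 ± 0.30, 0.0819) and the homeobox gene Nkx2-3 (-1.27 ± 0.29, 0.0676).

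The gut-like class was made of 4 clusters, and most members had very unequal levels among them. Cluster 12 was led by the pharyngeal genes Pax9, Nkx2-3 and Foxe1, cluster 34 by Upk3a, Gpx2, Apela and Ihh, cluster 36 by Ly6h, Pkib, Spink1 and Ghrl, and cluster 42 by Gpx2, Fgfbp1, Vtn and Prss1. In WT host libraries 1 and 2 Hhex was at 297.2 and 312.6 CPM in cluster 36, 34.2 and 63.9 CPM in cluster 12, and at most 5.00 CPM in clusters 34 and 42. Nepn was highest in another cluster, with 751.4 and 1308 CPM in cluster 42 and 0.231 and 1.64 CPM in cluster 12. Pyy was at 296.6 and 382.4 CPM in cluster 36 and 180.0 and 346.2 CPM in cluster 12, but at 4.62 and 0.625 CPM in cluster 34. Foxa1 rose from 47.1 and 43.4 CPM in cluster 12 to 123.4 and 155.5 CPM in cluster 42, while Foxa2 stayed between 36.5 and 76.9 CPM in all 4. Foxa3 was at 13.4 ± 2.21 CPM (SD, n = 2) in cluster 12 and at 48.1 to 75.8 CPM in the other 3. Cluster 36 held 17.4%, 13.4%, 8.33% and 7.41% of Tet-TKO gut-like cells and 25.4% and 20.2% of WT host ones, without overlap. The shares overlapped in cluster 12 (36.4% to 59.3% against 36.9% and 41.1%), cluster 34 (16.4% to 33.0% against 21.5% and 24.6%) and cluster 42 (11.1% to 22.7% against 16.2% and 14.1%), and the mixture was not tested.

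Each gut-like cluster was then fitted on its own, which was added after the data were seen. In cluster 12 Pyy was at 24.8, 27.8, 2.22 and 2.53 CPM in Tet-TKO and 180.0 and 346.2 CPM in WT host libraries. The log2 fold change of Pyy there was -4.06 ± 0.53 with an edgeR adjusted p of 0.00204, and it was called, where 0.556% of genes were called. Without WT host library 2 it had -3.52 and an adjusted p of 0.0375 and was no longer called. It was called without each of the other 5 libraries. The visceral endoderm-derived list was low in this cluster, at 44.1, 25.6, 38.2 and 39.2 CPM in Tet-TKO and 123.2 and 144.2 CPM in WT host cells at E8.5, and the erythroid markers summed to 8.84 to 49.0 CPM and to 593.3 and 1334 CPM. The part of erythroid RNA in the Pyy result was not tested.

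In cluster 36 Pyy was at 132.9 and 226.8 CPM in Tet-TKO libraries 1 and 2, the only Tet-TKO libraries with at least 10 cells there, and at 296.6 and 382.4 CPM in WT host libraries. Its log2 fold change of -0.98 ± 0.19 had an edgeR adjusted p of 0.00744 and fell just short of the fold that a call required. Nepn was at 49.2 and 30.02 CPM in the same Tet-TKO libraries and 145.3 and 160.2 CPM in the WT host ones, with a log2 fold change of -1.69 ± 0.21 and an adjusted p of 1.47e-04, and was called. The 8 cells of Tet-TKO library 3, left out of that fit, had 508.5 CPM of Nepn and the 2 of library 4 had 125.0 CPM, so the Nepn result holds for libraries 1 and 2. Of all genes in cluster 36, 0.894% were called.

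In cluster 34, where 1.02% of genes were called, Foxa1 was at 22.0, 14.9 and 13.5 CPM in the first 3 Tet-TKO libraries and at 57.3 and 39.4 CPM in the WT host. Foxa1 had a log2 fold change of -1.44 ± 0.27 and an edgeR adjusted p of 0.0135. Foxa3 in cluster 34 was at 22.8, 20.8 and 2.25 CPM against 58.7 and 54.4 CPM, with -1.73 ± 0.39 and an adjusted p of 0.0385. The Foxa3 log2 fold change was -1.01 ± 0.26 in cluster 36, -0.99 ± 0.41 in cluster 42 and -0.67 ± 0.53 in cluster 12, negative in all 4 and called in none. Several of these values turned on 1 library. The share of all genes called in each such fit is not given, so these calls are not read as a result about the members. Without Tet-TKO library 3 the members called in cluster 34 were Foxa3 (-1.28, edgeR adjusted p = 9.56e-04), Foxa1 (-1.30, 0.00541) and Nepn (-1.26, 3.64e-04) as lower and Trh (2.26, 2.43e-04) as higher, the Nepn value being -1.75 ± 0.51 (0.119) with all libraries. In cluster 42 Nepn went from -0.24 ± 0.63 (0.979) to -1.55 and was called without that library (2.42e-06), as was Pyy (4.35e-04). In cluster 12 Nepn was at 0.371, 0, 18.8 and 25.3 CPM against 0.231 and 1.64 CPM, the opposite direction, with 3.61 ± 1.38 (0.389) from 1, 0, 34 and 20 UMIs in Tet-TKO and 1 and 4 UMIs in WT host libraries. In cluster 36 Pyy was called without Tet-TKO library 2 (-1.24, 1.94e-10) and without WT host library 1 (-1.17, 1.11e-08), and moved to -0.53 (0.270) without Tet-TKO library 1. Sox17 there went from 0.51 ± 0.37 (0.585) to 1.87 and was called without WT host library 1 (4.98e-09). Trh with all libraries had log2 fold changes of 0.96 ± 0.52 in cluster 12, 1.82 ± 0.72 in cluster 34, 1.152 ± 0.433 in cluster 36 and 0.20 ± 1.14 in cluster 42, called in none (edgeR adjusted p from 0.199 to 0.991). Without WT host library 1 the Trh values were 2.11 in cluster 12 and 3.40 in cluster 34, and without WT host library 2 they were 0.34 and 1.16. In cluster 36 Trh was called without Tet-TKO library 2 (1.601, 4.71e-15) and without WT host library 1 (2.60, 5.93e-17) and turned to -0.86 (0.447) without Tet-TKO library 1. In cluster 42 Trh turned to -2.71 (0.363) without Tet-TKO library 1 and to -0.43 (0.9997) without WT host library 2. Where this left 1 library of a genotype, it was assumed to vary like those of the other. In cluster 42, where 0.196% of genes were called, Pyy was at 3.56, 0 and 0 CPM in the first 3 Tet-TKO libraries, against 24.1 and 68.9 CPM in the WT host, with an adjusted p of 0.0459. Hhex in cluster 36 was at 231.3 and 230.2 CPM against 297.2 and 312.6 CPM (log2 fold change -0.32 ± 0.12, edgeR adjusted p = 0.224) and was not called. In cluster 12 its log2 fold change was 0.03 ± 0.29, which turned to -0.39 without WT host library 1 and was 0.52 without WT host library 2. Both values with all libraries were nearer to 0 than that of Hhex in the whole class, -1.01, and the difference was not tested. Sox17 in cluster 12 had 1.27 ± 0.45 (edgeR adjusted p = 0.344), which was 2.28 without WT host library 1 and 0.76 without WT host library 2.

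**Figure D3:**
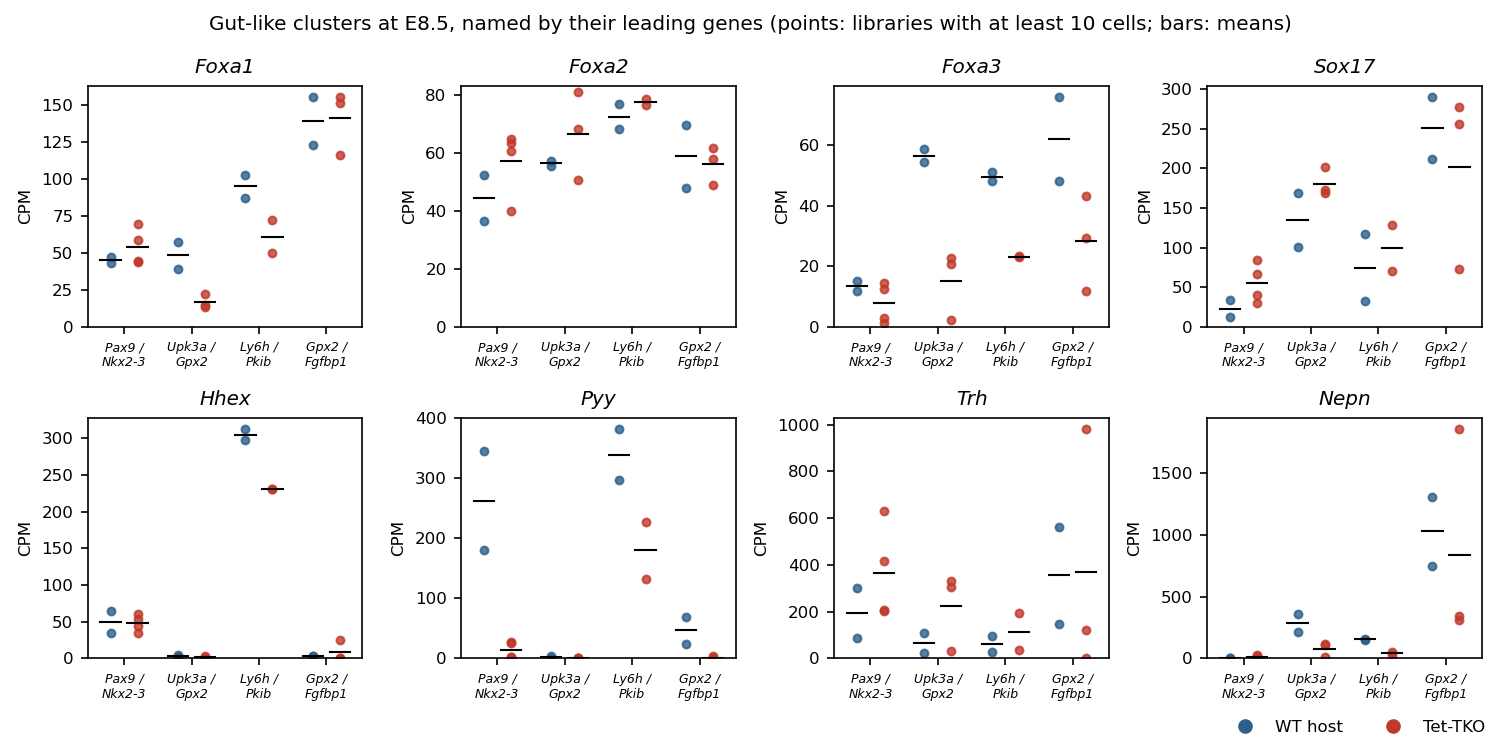
Level of the members (CPM) in each of the 4 gut-like clusters at E8.5, with a point per library for Tet-TKO and WT host. Pyy points of Tet-TKO lie under those of the WT host in cluster 12, Hhex points stand highest in cluster 36 in both genotypes, and Nepn points stand highest in cluster 42.

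In notochord-like cells, where Foxa1 and Foxa2 are expressed beside Shh, Noto and Chrd, neither factor was called by edgeR or DESeq2. Such cells numbered 25, 11, 11 and 1 in Tet-TKO and 48 and 18 in the WT host, and the fit used the 3 Tet-TKO libraries with at least 10 cells. Foxa2 was at 198.3, 116.2 and 133.9 CPM in these and at 151.4 and 181.8 CPM in WT host libraries, overlapping, with a log2 fold change of -0.04 ± 0.30 (edgeR adjusted p = 0.995). Foxa1 was at 74.4, 125.9 and 40.8 CPM against 55.8 and 53.9 CPM, with 0.42 ± 0.47 (0.857). Trh was at 88.5, 58.1 and 5.82 CPM against 111.5 and 6.73 CPM, with -0.52 ± 0.81 (0.915). Of the 3 members tested 0 had an unadjusted p under 0.05, and 0.349% of all genes were called. The Trh value moved most, to 2.85 without WT host library 1. The difference of the genotype effect of Trh between gut-like and notochord-like cells of the same 5 libraries was 1.56 ± 0.37 on the log2 scale (edgeR with library as a block, adjusted p = 0.00590). It rests on few UMIs in notochord-like cells, where 1 library of each genotype was under 7 CPM. The same difference was 0.13 ± 0.30 for Foxa2 and -0.56 ± 0.40 for Foxa1 (adjusted p = 0.981 and 0.816).

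Sox17 and Hhex were not called in the blood vessel lineage, and their fitted differences there were small. In endothelium-like cells Sox17 was at 116.4, 106.8, 126.6 and 124.6 CPM in Tet-TKO and 106.3 and 93.3 CPM in WT host libraries, with a log2 fold change of 0.24 ± 0.14 (edgeR adjusted p = 0.633). Hhex there was at 121.9, 112.6, 154.3 and 140.0 CPM against 147.5 and 146.8 CPM, with -0.17 ± 0.14 (0.777). In haematoendothelial progenitor-like cells Hhex was at 266.2, 241.1, 287.0 and 303.9 CPM against 264.3 and 291.9 CPM, with -0.02 ± 0.13 (0.969), and Sox17 had 0.31 ± 0.21 (0.663). In that class edgeR called 0.720% of all genes and 0 members, of which 0 had an unadjusted p under 0.05, and DESeq2 called 0. The Hhex effect in gut-like cells differed from that in endothelium-like cells by -0.84 ± 0.25 and from that in haematoendothelial progenitor-like cells by -1.06 ± 0.29, and neither difference passed (edgeR adjusted p = 0.116 and 0.177).

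Pyy was the member called in endothelium-like cells, where 1.10% of genes were called. It was at 3.37, 3.51, 1.77 and 5.75 CPM in Tet-TKO and 21.8 and 18.9 CPM in WT host libraries, with a log2 fold change of -2.59 ± 0.29 and an edgeR adjusted p of 2.89e-04. Without WT host library 1 the adjusted p was 0.0167 and Pyy was not called. The WT host level in endothelium-like cells was near that of 22.8 and 29.7 CPM in cardiomyocyte-like cells of the same libraries. It was above the means of 0.122 CPM in blood progenitor-like and 0.959 CPM in erythroid-like cells. Pyy in cardiomyocyte-like cells was lower in Tet-TKO too, at 0.969 to 21.3 CPM. Its log2 fold change there was -1.63 ± 0.70 (edgeR adjusted p = 0.334), which was not called. The part of free RNA in the endothelium-like result was not tested. In haematoendothelial progenitor-like cells Pyy was between 14.8 and 27.3 CPM in Tet-TKO libraries 1, 2 and 3, at 100.2 CPM in library 4 and at 37.1 and 24.3 CPM in WT host libraries, with 0.16 ± 0.66 (0.958). The highest of these came from the 12 cells of Tet-TKO library 4.

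In neural tube-like cells Foxa2 had a higher level in all 4 Tet-TKO libraries. It was at 8.12, 10.03, 15.97 and 14.5 CPM in these and at 5.70 and 5.04 CPM in WT host libraries. The groups did not overlap, and the log2 fold change was 1.19 ± 0.25 with an edgeR adjusted p of 0.0522, which did not pass. Foxa1 had 1.06 ± 0.41 (0.255), from values of 0.994 to 1.81 CPM against 0.778 and 0.583 CPM. Pyy had -4.35 ± 0.66 (0.0154), from 0 to 0.688 CPM against 3.02 and 5.35 CPM. None of the 6 members tested was called by edgeR, where 0.712% of genes were, and 3 had an unadjusted p under 0.05, as did 16.4% of all genes. DESeq2 called 2 of them, Foxa2 (log2 fold change 1.18, adjusted p = 0.00195) and Pyy (-4.33, 4.11e-06). The share of 0.712% is that of edgeR, and the share of all genes called by DESeq2 in this class is not given. In cluster 48, whose leading genes Nkx2-9 and Nkx6-1 are ventral neural genes, Foxa2 was at 166.2, 151.4, 158.6 and 144.8 CPM in Tet-TKO and 135.7 and 126.0 CPM in WT host libraries, with 0.24 ± 0.17 (edgeR adjusted p = 0.595).

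Over the 32 fitted classes 69 pairs of member and class could be tested and 3 were called, 1 higher and 2 lower, or 4.35% where 0.628% of all gene and class pairs were called. One was Pyy in endothelium-like cells. The others were both Hhex, in opposite directions. In erythroid-like cells Hhex was at 44.3, 47.6, 47.4 and 75.9 CPM in the 21, 114, 30 and 12 Tet-TKO cells and at 6.56 and 8.63 CPM in the 579 and 1887 WT host cells. It rose by a log2 fold change of 2.54 ± 0.24 (edgeR adjusted p = 3.39e-04), in a class where 1.81% of genes were called. Whether the erythroid-like cells of the 2 genotypes were equally mature was not tested. In blood progenitor-like cells Hhex was at 61.5, 62.2, 104.3 and 68.6 CPM against 34.2 and 19.98 CPM, with 1.44 ± 0.25 and an adjusted p of 0.0145. In cluster 68 Hhex was at 36.8 and 56.3 CPM in Tet-TKO libraries 1 and 2, against 122.2 and 175.0 CPM in the WT host. It fell by 1.65 ± 0.28 on the log2 scale (edgeR adjusted p = 3.78e-04), where 0.773% of genes were called. That cluster had 31 and 12 Tet-TKO and 34 and 10 WT host cells and leading genes of both gut and vessel, so cells of the 2 kinds captured together were not told apart there.

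By sign alone Pyy had a lower fitted level in 7 of 9 tested classes and Hhex in 12 of 17. Pyy was higher in haematoendothelial progenitor-like and in allantois-like cells, the latter at 0.36 ± 0.27 (edgeR adjusted p = 0.577). Trh was lower in 9 of 13 and Foxa2 and Sox17 higher in 7 of 9 and 9 of 13. The classes share libraries and the signs over all genes are not given, so these counts are not read as a result about the members. Foxa3 passed the filter on low counts in the gut-like class alone and Nepn in gut-like cells and cluster 68 (log2 fold change 0.05 ± 0.33 in the latter), among the 32 fitted classes. Visceral and yolk sac endoderm-like cells could not be fitted, because 1 Tet-TKO library alone had 10 or more of them. Of the 69 pairs, 20 had an unadjusted p under 0.05, as did 11.3% of all 291691 gene and class pairs.

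**Figure D4:**
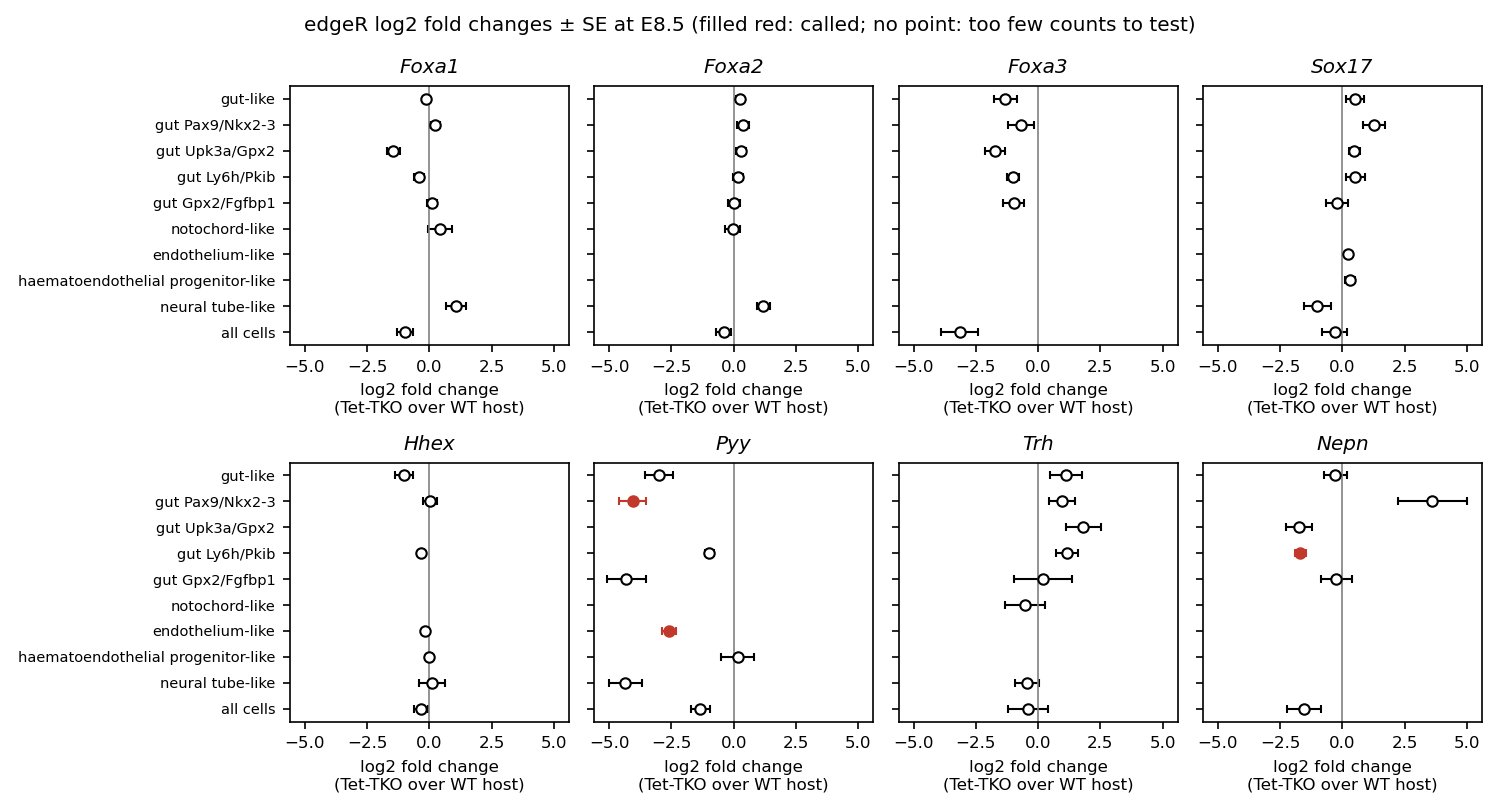
Fitted log2 fold change of Tet-TKO against WT host at E8.5, with its SE, for each member where it could be tested, called values in red. Shown are gut-like cells and each of their clusters, notochord-like, endothelium-like, haematoendothelial progenitor-like and neural tube-like cells, and all cells. Pyy lies left of 0 in gut-like, endothelium-like and neural tube-like cells, and Hhex left of 0 in gut-like cells. Foxa1 and Foxa2 lie near 0 in gut-like cells. In notochord-like cells Foxa2 lies near 0 and Foxa1 right of it, with an SE that reaches past 0.

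Levels over whole libraries also reflect how many cells of a class were captured, and there fewer cells of a type and less RNA per cell cannot be told apart. Over all E8.5 cells Foxa3 was at 1.51, 0.635, 0.283 and 0.308 CPM in Tet-TKO and 9.14 and 3.08 CPM in WT host libraries, with a log2 fold change of -3.14 ± 0.74 and an edgeR adjusted p of 0.0423. Pyy was at 8.71, 10.4, 5.08 and 4.57 CPM against 19.6 and 15.7 CPM, with -1.34 ± 0.39 (0.0769). Nepn was at 5.35, 2.25, 15.4 and 3.22 CPM against 22.6 and 12.5 CPM, with -1.53 ± 0.68 (0.209). Without WT host library 1 the values were -2.19 for Foxa3 (0.318) and -1.09 for Nepn, without Tet-TKO library 1 Foxa3 had -3.94, and without Tet-TKO library 3 Nepn had -2.31. Foxa1 had -0.97 ± 0.32 (0.108), and the log2 fold changes of Foxa2, Sox17, Hhex and Trh lay between -0.32 and -0.40 with adjusted p of at least 0.443. None of the 8 was called by edgeR, where 2.65% of 21072 genes were, and 3 had an unadjusted p under 0.05, as did 26.7% of all genes. DESeq2 called 0.

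The numbers of gut-like, notochord-like and visceral and yolk sac endoderm-like cells were compared, and 1 of the 3 passed. The gut-like share was 3.67% ± 1.56 (SD, n = 4) in Tet-TKO and 8.98% ± 4.94 (n = 2) in the WT host, at a log2 fold change of -1.29 ± 0.48 with an edgeR adjusted p of 0.0792 over 42 classes. The notochord-like share was 0.262% ± 0.186 and 0.390% ± 0.270 (log2 fold change -0.54 ± 0.88, adjusted p = 0.714). Visceral and yolk sac endoderm-like cells numbered 12, 2, 8 and 4 in Tet-TKO and 634 and 234 in WT host libraries, and were lower by a log2 fold change of -4.72 ± 0.93 (adjusted p = 0.0142, threshold 0.05). The call was lost without WT host library 1 (-3.76, adjusted p = 0.0844) and with Tet-TKO libraries summed in pairs (-4.64, 0.0774). Cells derived from embryonic stem cells contribute little to this class in chimaeras, and no library of injected wild-type cells was compared. Genotype and origin from injected cells therefore cannot be told apart in its cell number. That class held 49.8% and 36.3% of all Foxa3 UMIs and 24.5% and 12.5% of all Foxa2 UMIs of the WT host libraries. In those cells Foxa3 was at 57.7 CPM in the 12 cells of Tet-TKO library 1 and at 46.4 and 43.4 CPM in WT host libraries. Of the 12 cells, 4 belonged to cluster 66, against 84 of 634 and 10 of 234 in WT host libraries. Foxa3 was at 98.1 ± 18.5 CPM (SD, n = 2) in WT host cells of cluster 66, so these class levels come from unlike mixtures.

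Each genotype had only 1 E7.5 library, so values have exact Poisson 95% intervals that cover counting error only and no test was made. Over all cells every member had a lower value in the Tet-TKO library, with overlapping intervals for Pyy alone. The share of all genes that were lower or apart in this way is not given, so this is not read as a result about the members. These levels also reflect cell numbers, such as 56 Tet-TKO and 426 WT host visceral and yolk sac endoderm-like cells. Foxa3 was at 1.25 CPM (interval 1.05 to 1.49) in 5510 Tet-TKO cells and 7.85 CPM (7.32 to 8.41) in 7142 WT host cells. Trh was at 44.8 CPM (43.5 to 46.1) against 110.2 CPM (108.2 to 112.2), Foxa1 at 1.21 CPM (1.01 to 1.44) against 3.53 CPM (3.17 to 3.91), and Foxa2 at 7.25 CPM (6.74 to 7.78) against 9.69 CPM (9.10 to 10.3). Sox17 was at 12.6 CPM against 24.2 CPM and Hhex at 7.89 CPM against 15.6 CPM. Pyy, with 14 and 24 UMIs, and Nepn, with 2 and 24 UMIs, were near 0 at this stage.

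No E7.5 cluster met the rule for the name gut-like. By value alone, Foxa1 was highest in cluster 14 (led by Gpx2, Cer1, Ermn and Lypd2) and Foxa2 in notochord-like cells in both genotypes. Foxa3 was highest in visceral and yolk sac endoderm-like cells in Tet-TKO, with an interval that overlapped that of cluster 14. In the WT host it was highest in cluster 18 (Pga5, Akr1c13, Srgn and Spink1). Hhex was highest in erythroid-like cells in Tet-TKO, at 124.9 CPM, and in cluster 36 (Gsc, Lefty1, Cer1 and Lhx1) in the WT host. Cluster 14 held 68 Tet-TKO and 245 WT host cells. There Sox17 was at 329.0 CPM (297.9 to 362.5) in Tet-TKO and 286.9 CPM (268.6 to 306.0) in WT host cells, Trh at 906.6 CPM (854.4 to 961.1) against 987.5 CPM (953.4 to 1023), and Foxa2 at 121.5 CPM (102.9 to 142.5) against 88.7 CPM (78.7 to 99.7). Foxa3 in cluster 14 was at 21.7 CPM (14.3 to 31.6) against 36.2 CPM (29.95 to 43.5), with overlapping intervals, and those of Foxa1 and Hhex overlapped too. Hhex in cluster 36 was at 64.0 CPM (50.2 to 80.3) in 55 Tet-TKO cells and 168.5 CPM (130.0 to 214.8) in 24 WT host cells.

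Cluster 18 held 3 Tet-TKO and 266 WT host cells, and Trh at 1985 CPM, Foxa3 at 104.4 CPM and Hhex at 121.6 CPM were high in its WT host cells. Visceral and yolk sac endoderm-like cells numbered 56 and 426, and there Foxa3 was at 25.4 CPM (10.2 to 52.3) against 45.2 CPM (39.7 to 51.1). In the 24 and 61 notochord-like cells Foxa2 was at 212.9 CPM (163.2 to 272.9) against 188.6 CPM (154.7 to 227.7) and Trh at 319.4 CPM (257.8 to 391.2) against 188.6 CPM (154.7 to 227.7).

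**Figure D5:**
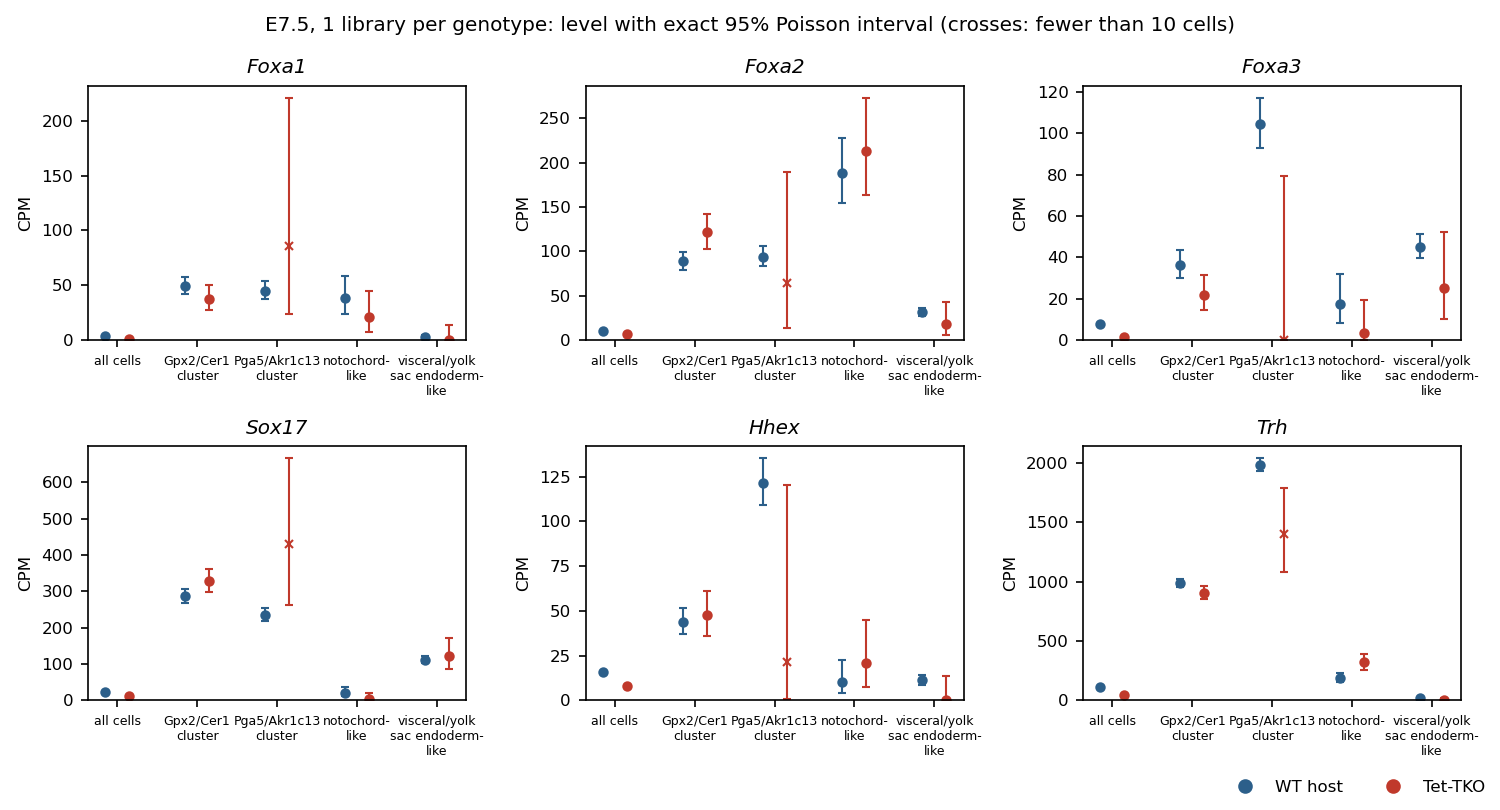
Level (CPM) with exact Poisson 95% intervals of 6 members in all cells, cluster 14 (Gpx2 and Cer1), cluster 18 (Pga5 and Akr1c13), notochord-like and visceral and yolk sac endoderm-like cells of the E7.5 Tet-TKO and WT host libraries. Over all cells each Tet-TKO point lies under that of the WT host, while in cluster 14 the Sox17 and Foxa2 points of Tet-TKO lie above. The share of all genes that were lower over all cells is not given.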

How the data were processed

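Single-cell RNA-seq libraries of the 3′ end (10x Genomics) of sorted Tet-TKO and WT host cells were analysed, with 4 and 2 libraries at E8.5 and 1 of each at E7.5. Cell Ranger with the mm10 reference gave the deposited values, which are unnormalised UMI counts of each gene in each barcode. The 8 members, the gene lists and the tests were chosen with earlier results of these data known.

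The study's own limits on cells were used: 1500 UMIs as a minimum, and maxima of 30% for mitochondrial and 35% for ribosomal UMIs. Per stage, 2500 variable genes without the members, 50 principal components, correction between libraries by 20 mutual nearest neighbours and Leiden clustering at resolution 2 (leidenalg 0.10.2, igraph 0.11.9, Python 3.11.15) gave clusters. A cluster took a class name where 3 or more of that class's markers exceeded a log2 fold of 1, with a lead of 0.2 over the next class and without more markers of a different class in the 10 leading genes. These names are rebuilt and can differ from those of the study. Doublets were scored with Scrublet and removed only as an alternative.

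Counts were summed per class and library (at least 10 cells) and fitted over all genes with edgeR 4.0.16 in R 4.3.3 (filterByExpr, TMM, glmQLFit, glmQLFTest). Genes were called at a Benjamini-Hochberg adjusted p under 0.01 and an absolute log2 fold change of at least 1. Cell numbers were tested the same way over classes at 0.05. CPM values were computed from the deposited counts. Tested on simulated sums of the gut-like class (12167 genes), the fit called 24% of changes of 1 and 80% of changes of 2 on the log2 scale, and 3 of 11656 unchanged genes. Alternatives were DESeq2 1.42.0, other filters and clusterings, summed libraries, a replicate block and leaving out each library. The named genes are the members, the 3 genes nearest to each in pattern, genes of the lists called in gut-like cells, and Rhox5 and Trap1a. The gut-like values of Shh, Ihh, Spink1, Epcam, Rab25, Cpm and Nkx2-3 were chosen after they were seen. A gene named by these rules is not reported here.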

Additional observations from a re-analysis of the deposited data

Results flagged for a closer look

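Of 28 groups of 4 libraries examined for a library far from the others, 3 had one, where chance would give about 1 in 20. Pyy in haematoendothelial progenitor-like cells was at 100.2 CPM in E8.5 Tet-TKO library 4 (117 UMIs in 12 cells) and at 14.8 to 27.3 CPM in the other 3 Tet-TKO libraries. Trh over all cells was at 33.5 CPM in Tet-TKO library 1 and at 7.55 to 8.97 CPM in the other 3. Nepn in gut-like cells was at 394.2 CPM in Tet-TKO library 3 and at 98.6 to 129.9 CPM in the others. A difference between classes was found for Trh, whose log2 fold change in gut-like cells exceeded that in notochord-like cells of the same 5 libraries by 1.56 (edgeR adjusted p = 0.00590), with Trh at 5.82 and 6.73 CPM in the notochord-like cells of Tet-TKO library 3 and WT host library 2.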

How the results depend on the processing

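Against 90 genes called in gut-like cells, DESeq2 called 168, no filter on low counts 186, summing Tet-TKO libraries 1 with 2 and 3 with 4 gave 40, and leaving out 1 library gave 15 to 84, the lowest 2, 16 and 15, without WT host library 1 and 2. Against 0 members called there, no filter gave 1 and leaving out 1 library 0 to 1, the 1 being Hhex without Tet-TKO library 1 (-1.49, adjusted p = 0.00855). In endothelium-like and haematoendothelial progenitor-like cells 1 member was called and 0 without WT host library 1. In neural tube-like cells 0 were called, and 2 by DESeq2, 3 without a filter, 1 in the match of sorted fractions and 0 to 1 with a library left out (1 without Tet-TKO library 1). Over all classes 3 calls became 5 by DESeq2, 22 without a filter and 3 to 6 with a library left out (6 without Tet-TKO library 1), and 2 at 30 or more cells per sum and without correction between libraries. The share of all gene and class pairs called under each alternative is not given, so these counts are not read as a result about the members. The number of gut-like cells passed at resolution 1 (-1.37, adjusted p = 0.0457) and ran from -1.76 to -0.58 with a library left out. That of notochord-like cells turned to 0.94 without correction between libraries, 0.38 with doublets removed and 0.42 without WT host library 1 (range -1.11 to 0.42). That of visceral and yolk sac endoderm-like cells did not pass with summed libraries (-4.64, adjusted p = 0.0774) or without WT host library 1 (range -5.32 to -3.76).

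Both fractions were sorted from mixed embryos. The study describes a matching WT host for each Tet-TKO sample in its cell type proportions, but the labels do not say which libraries share embryos. Deviations of same-numbered libraries correlated at r = 0.199 and 0.00196 over 12167 genes, so a pairing by number was not established and the libraries were treated as unpaired. A replicate block left 1 residual degree of freedom. It gave 407 genes and 3 members in gut-like cells (Trh at 1.73, Nepn at -1.05 and Pyy at -2.20), 2 members in neural tube-like cells, 2 over whole libraries, 12 calls over all classes, and cell numbers of -1.24 (gut-like, adjusted p = 0.00584) and -0.74 (notochord-like, adjusted p = 0.0286). It turned Foxa2 and Trh in notochord-like cells to 0.14 and 0.15, Pyy in haematoendothelial progenitor-like cells to -0.88, and Sox17 and Trh over all cells to 0.27 and 0.19.

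Other values changed sign too. In notochord-like cells Foxa1 turned to -0.0709 and Foxa2 to 0.20 in the match of sorted fractions, Foxa2 to 0.0385 without correction, Foxa2 ran from -0.33 to 0.14 and Trh from -1.88 to 2.85 with a library left out. In endothelium-like cells Hhex turned to 0.14 at resolution 1 and Sox17 to -0.0595 without correction. In haematoendothelial progenitor-like cells Hhex turned to 0.0081 without a filter and 0.0021 with doublets removed (-0.0690 to 0.0209 with a library left out), and Pyy to -0.68 at 30 or more cells, -0.0640 at resolution 1, -1.15 without correction and -0.0017 at 3000 UMIs per cell (-0.68 to 0.58). In neural tube-like cells Hhex turned to -0.0438 in the match of sorted fractions (-0.25 to 0.45), and Trh ran from -0.99 to 0.56. Over all cells Foxa2 ran from -0.83 to 0.20, Sox17 from -0.83 to 0.50 and Trh from -1.29 to 0.96, turning without WT host library 1. The cause of these changes was not tested. Notochord-like cells gave no value at 30 or more cells per sum. Of the single values, 259 kept direction and side of the threshold under the other alternatives, 12 changed sign and 6 became called. With a library left out 165 kept both, 15 changed sign, 2 became called and 1 lost its call. Under the replicate block 19 kept both, 5 changed sign and 7 became called. In gut-like cells the 8 members kept their sign under every alternative without a block; the log2 fold change of Pyy ran from -3.49 to -2.67 and its adjusted p from 3.41e-04 to 0.2602.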
